A study of Mus musculus with 43 samples.

Results

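Vascular endothelial growth factor (VEGF) signalling was followed through 8 mouse genes: the receptors Flt1, Kdr and Flt4, the ligands Vegfa, Vegfb and Vegfc, and the neuropilin co-receptors Nrp1 and Nrp2. They were chosen by name as one family, with earlier results of these data known, and each had 1 row among the 52636 genes of both deposited expression tables. Flt1 (chr5:147561604-147726011) and Kdr (chr5:75932827-75978458) lie on the minus strand, and Flt4 (chr11:49609263-49652739) lies on the plus strand. Vegfa (chr17:46016993-46032369) and Vegfb (chr19:6982473-6987651) lie on the minus strand, and Vegfc (chr8:54077606-54187096) on the plus strand. Nrp1 (chr8:128358604-128503363) and Nrp2 (chr1:62703285-62818695) lie on the plus strand. These are GRCm38 coordinates of the whole protein-coding genes in GENCODE release M21. Nrp1 shared 80 bases of exon with the microRNA gene Mir1903 on the same strand, and no other member overlapped another gene's exons.

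The study asked how colon epithelium and colon stroma respond to regorafenib, a multi-kinase inhibitor that is designed against VEGF receptors among other kinases. Colonoids were grown from the colon epithelium of tamoxifen-injected adult Vil-cre/ERT2/Apcwt/wt mice, and tumoroids from likewise injected Vil-cre/ERT2/Apcflox/flox mice. Both genotypes therefore carried the Villin-driven, tamoxifen-activated Cre, which acts in intestinal epithelium, and both had been exposed to tamoxifen. The 3 colonoid lines (M41, M40 and M1) and the 3 tumoroid lines (F11, M3 and M14) were each treated for 6 days with DMSO vehicle (Ve), 4 µM regorafenib (R4), 8 µM regorafenib (R8) or 1 µM 5-fluorouracil (5-FU), an inhibitor of thymidylate synthesis. The sample titles of the 5-FU libraries of F11, M3 and M14 call them colonoids, whereas their library names carry the knockout label. They were grouped as tumoroids by library name and line. Primary colon fibroblasts from wild-type C57B/6 mice were treated for 7 days with vehicle, R4, 10 µM regorafenib (R10), 1 µM autogramin-2 (A1), which binds the sterol transfer protein GRAMD1A, or R4 with A1 (R4A1). The 4 fibroblast lines were M3, M3(2), M1(2) and M11, and M11 had no R10 library. Each line came from 1 mouse, so n counts lines, and the organoid cultures held epithelium without vessels or stroma. The study lists the mice of the 6 organoid lines, and those of fibroblast lines M3 and M3(2), as 2 months old. All of these were male except the mouse of tumoroid line F11.

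VEGF ligands are secreted dimers that bind receptor tyrosine kinases, best known from endothelial cells. VEGF-A binds VEGFR1 (Flt1), which acts largely as a decoy, and VEGFR2 (Kdr), the main signalling receptor of blood vessels. VEGF-B binds VEGFR1, and VEGF-C binds VEGFR3 (Flt4), the receptor that drives growth of lymphatic vessels, and after processing also VEGFR2. Neuropilins have short cytoplasmic tails and no kinase domain, and they present VEGF to its receptors and class 3 semaphorins to plexins. In the colon the receptors are best known from the vessels of the wall, whereas epithelium and fibroblasts are sources of ligand.

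Values are CP20M, gene counts scaled to 20000000 per library and rounded up to whole numbers. The study's legends define CP20M per kilobase of transcript, but in the deposited values 1 read was worth the same for nearly all genes of a library, so they are not divided by length. Recovered library totals ran from 512592 to 22369266 reads (median 15697976) for the 24 organoid libraries and from 7949937 to 12825791 (median 9039204) for the 19 fibroblast libraries. The lowest total belonged to the colonoid M41 library with R4, where 1 read was worth 39.0 CP20M, and the next lowest was 4371789 reads. Epithelial markers summed to 74239 to 188649 CP20M in the organoids and to 21 to 123 in the fibroblasts, where 8 of 8 fibroblast markers were detected and summed to 110998 to 186156. In the organoids the fibroblast markers summed to at most 123 CP20M and Lum, which encodes the matrix proteoglycan lumican, was at 0 in all libraries. The fibroblast cultures also held RNA of other cells, with glial and neuronal markers of up to 13216 CP20M and immune markers of 446 to 5555. The organoid and fibroblast tables were scaled separately, so levels set across them are descriptions.

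The results turn on Flt4 and Nrp2 in organoids and on Kdr and Vegfc in fibroblasts, so the promoters of these 4 genes are shown to set beside their values. Each is 300 bases of RefSeq sequence (GRCm38.p6), from 250 bases before the annotated start to 50 after it, written 5′ to 3′ along the gene. Capitals mark matches, on either strand, to 6 motifs: the hypoxia-inducible factor core (ACGTG or GCGTG), AP-1 (TGANTCA), an ETS core (CCGGAA), TEAD (GGAATG), a forkhead core (TGTTTA) and the SP/KLF box (GGGCGG).
Flt4, chr11:49609429-49609728, plus strand: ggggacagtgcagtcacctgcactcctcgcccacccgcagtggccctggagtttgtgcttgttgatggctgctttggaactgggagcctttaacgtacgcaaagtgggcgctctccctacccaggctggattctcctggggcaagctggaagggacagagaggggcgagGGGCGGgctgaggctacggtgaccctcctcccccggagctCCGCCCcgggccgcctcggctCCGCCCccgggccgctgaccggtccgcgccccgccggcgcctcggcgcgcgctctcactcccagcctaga
Nrp2, chr1:62703067-62703366, plus strand: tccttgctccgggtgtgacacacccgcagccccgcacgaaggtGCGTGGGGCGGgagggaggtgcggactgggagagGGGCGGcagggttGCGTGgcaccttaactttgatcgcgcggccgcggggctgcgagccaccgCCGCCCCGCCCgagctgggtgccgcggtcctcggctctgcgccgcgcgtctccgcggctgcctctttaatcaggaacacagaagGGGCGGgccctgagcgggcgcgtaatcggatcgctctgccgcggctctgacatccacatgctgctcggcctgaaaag
Kdr, chr5:75978406-75978705, minus strand: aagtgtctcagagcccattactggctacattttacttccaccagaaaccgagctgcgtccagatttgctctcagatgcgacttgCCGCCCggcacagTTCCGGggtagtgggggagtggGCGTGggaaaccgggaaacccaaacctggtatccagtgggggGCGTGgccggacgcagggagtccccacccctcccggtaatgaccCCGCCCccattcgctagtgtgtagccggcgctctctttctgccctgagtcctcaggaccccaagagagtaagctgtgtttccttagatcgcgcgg
Vegfc, chr8:54077282-54077581, plus strand: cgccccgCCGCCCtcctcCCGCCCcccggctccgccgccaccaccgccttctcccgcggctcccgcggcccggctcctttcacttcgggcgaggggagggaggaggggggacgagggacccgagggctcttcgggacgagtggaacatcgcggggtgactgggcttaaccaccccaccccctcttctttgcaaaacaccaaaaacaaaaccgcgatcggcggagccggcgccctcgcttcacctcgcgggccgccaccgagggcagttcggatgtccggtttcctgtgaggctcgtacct

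All 8 members were matched to RefSeq, with 9 promoters because Vegfa has 2. The SP/KLF box was present in every one of the 9, with 3 matches in Flt4, 5 in Nrp2, 2 in Kdr and 2 in Vegfc, and in 35.7% of all 32851 mouse promoters of the same length. The windows of Flt4, Nrp2 and Vegfc were rich in G and C, at 70.3%, 70.7% and 70.3%, against 60.7% for Kdr and a median of 52.7% over all promoters. The hypoxia-inducible factor core had 2 matches in Nrp2 and 2 in Kdr and none in Flt4 or Vegfc, and 43.8% of all promoters held it. In Nrp2 the first of these matches is directly followed by an SP/KLF box, and 2 of its SP/KLF boxes share a letter. The ETS core, bound by factors that include endothelial regulators, had 1 match in Kdr, 153 bases before the start, and was found in 14.9% of all promoters. The forkhead core, found in 13.4% of all promoters, matched only the Vegfb window. AP-1 and TEAD motifs, in 7.81% and 14.7% of all promoters, had no match in any of the 9 windows. These matches are descriptions of letters and not of binding.

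In vehicle, the epithelium expressed Vegfa, Vegfb and the neuropilins at levels far above those of the receptors, whereas the ligand Vegfc was near Flt4. To compare genes, CP20M was divided by kilobases of exon. Vegfa led in colonoids at 474 ± 74.3 CP20M per kb (SD, n = 3), followed by Vegfb at 109 ± 19.8, Nrp2 at 80.8 ± 22.1 and Nrp1 at 23.1 ± 6.71. Vegfc at 5.99 ± 2.72 and Flt4 at 3.85 ± 1.22 were lower in the same unit, and Flt1 and Kdr averaged 0.321 and 0.148. Vegfb overlapped Nrp2, Vegfc overlapped Flt4, and Flt1 overlapped Kdr, whereas the other neighbours in this order were separate. In tumoroids the order of the upper 4 was the same, with Vegfa at 749 ± 278, Vegfb at 169 ± 72.6 and Nrp2 at 101 ± 17.1 CP20M per kb (SD, n = 3), and Nrp1 at 15.0 to 42.9. Flt4 followed at 3.08 ± 1.53, Vegfc at 2.31 ± 2.25 and Flt1 at 0.272, and Kdr was 0 in each tumoroid line. Here Vegfb overlapped Nrp2, Flt4 overlapped Vegfc, and Vegfc overlapped Flt1.

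Fibroblasts had a flatter order, led by Nrp2 at 543 ± 158 CP20M per kb (SD, n = 4), then Vegfb at 428 ± 18.8, Nrp1 at 259 to 486 and Vegfa at 354 ± 42.9. Vegfc followed at 208 ± 74.2, Flt4 at 190 ± 127, Kdr at 7.97 to 113 and Flt1 at 16.3 ± 19.5. Only Vegfa and Vegfc were separate neighbours, and every other pair of neighbours overlapped between lines. For Kdr and Flt1, M3(2) was far above the other 3 lines.

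**Figure D1:**
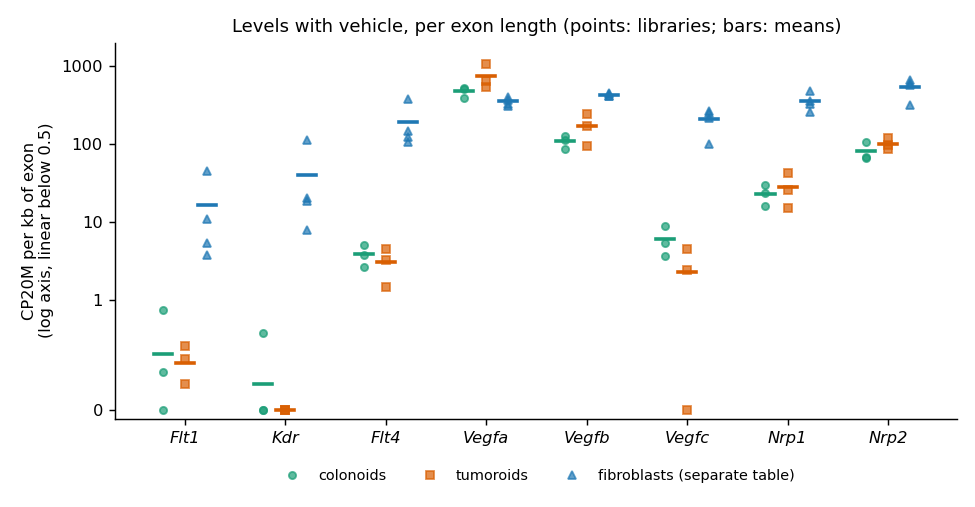
Vehicle levels of the 8 genes in CP20M per kilobase of exon (log axis, linear below 0.5), with 1 point per library and a bar at each group's mean for 3 colonoid, 3 tumoroid and 4 fibroblast lines. Vegfa is the highest gene in colonoids (474) and tumoroids (749), and the 3 receptors are at most 3.85 there against 16.3 to 190 in fibroblasts.

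Differences between groups were tested with limma on log2(CP20M + 20), and a call needed a Benjamini-Hochberg adjusted p under 0.05 over all genes tested and a change of at least 1.5-fold. Fold changes are therefore on the log2(CP20M + 20) scale, which understates changes of low genes. A gene was tested where at least 2 libraries reached 200 CP20M, which 5 of the 8 genes did in organoids and 8 of 8 in fibroblasts. Flt1, Kdr and Vegfc did not pass in organoids. Flt4 passed there only through 6 regorafenib libraries, the groups where it was high, so a p from that fit is not support for its rise. Its adjusted p for regorafenib against vehicle is therefore given from the limma fit with no filter, in which every gene was tested. A second fit added a term for the line, given where it changed a call. Treated groups were compared with the same vehicle libraries, so these comparisons are not independent of each other.

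No difference between genotypes was called for the family in vehicle. None of the 5 genes tested was called by limma, against 1.39% of the 11320 genes tested, and 0 of the 5 had an unadjusted p under 0.05. edgeR and DESeq2 on the recovered reads also called none. Vegfa was at 2274, 1671 and 2150 CP20M in the colonoid lines M41, M40 and M1 and at 2327, 4565 and 2740 in the tumoroid lines F11, M3 and M14. Each tumoroid line was thus above each colonoid line, but the difference of 0.61 on the log2 scale (SE 0.32, 95% interval -0.08 to 1.29) had a limma adjusted p of 0.393. Vegfb ranged from 140 to 202 CP20M in colonoids and from 153 to 386 in tumoroids, with overlap.

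Regorafenib raised Flt4, the VEGF-C receptor, in the epithelium of both genotypes, 5.05-fold over both doses. In colonoids Flt4 was at 31 CP20M with Ve, 79 with R4 and 803 with R8 in M41, at 22, 112 and 437 in M40, and at 42, 195 and 399 in M1. In tumoroids it was at 12, 86 and 146 in F11, at 37, 153 and 238 in M3, and at 27, 214 and 419 in M14. All 12 regorafenib libraries lay above all 6 vehicle libraries, and R8 exceeded R4 in 6 of 6 lines. The values rest on few reads, 9 to 37 per library with Ve and 2 in the shallow M41 library with R4, but on 55 to 407 with R8. Over both genotypes and doses the log2 fold change was 2.34 (SE 0.27, 95% interval 1.77 to 2.90), with an adjusted p of 6.87e-05 in limma with no filter. It was 2.44 (SE 0.38) in colonoids and 2.24 (SE 0.38) in tumoroids, where limma with no filter gave adjusted p-values of 0.00173 and 0.00792. Without tumoroid line M14 the tumoroid value was 1.97 with a limma adjusted p of 0.0551 in the filtered fit, so the call of the filtered fit rests on M14. The fit with no filter was not run without M14.

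Flt4 is a receptor of endothelial cells, and the endothelial markers were therefore read in the same libraries. Of the 12 blood endothelial markers, Emcn was at 0 in all 24 organoid libraries and Cdh5, the junctional cadherin of endothelium, reached at most 10 CP20M. Egfl7 alone passed the filter, 11 of the 12 had a read somewhere, and the summed list ranged from 168 to 350 CP20M with Ve, 149 to 355 with R4 and 180 to 453 with R8. The 5 lymphatic markers summed to 21 to 117 with Ve, 80 to 257 with R4 and 44 to 213 with R8, mostly Prox1, with Ccl21a at 0 throughout. Prox1 was higher but not called over both genotypes (0.66, SE 0.30, limma adjusted p = 0.119) or in tumoroids (0.96, SE 0.43, limma adjusted p = 0.202). It passed the filter only through M14 libraries with regorafenib, so a p from these fits is not support for a rise. The mural and muscle list moved with the drug, from 42 to 356 CP20M with Ve to 208 to 2897 with R4 and 1101 to 7181 with R8. Mcam, which encodes an adhesion molecule of mural and other cells, was its only gene to pass the filter, rose by 3.16 over both genotypes, and made up 7173 of the highest sum, in the same M41 library that had the highest Flt4. The immune list summed to 423 to 573 with Ve, 541 to 906 with R4 and 596 to 3247 with R8, again highest in that library, with Cd68 called higher. Adgre1 and Lyz2, of the same list, were at 0 in each library with R8. The part of such cells in the Flt4 result was not tested. In bulk RNA, fewer cells of a type and less RNA per cell cannot be told apart, here and in the fibroblasts.

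The other receptors were not induced to a measurable level. Flt1 stayed at or under 13 CP20M in 23 of 24 organoid libraries, and the remaining value of 79 was 2 reads in the shallow M41 library with R4. Kdr had no read in 20 of 24 libraries and at most 2 reads in any, and 0 reads still allows up to 3.

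Among the co-receptors, Nrp2 rose 2.07-fold with regorafenib over both genotypes. In colonoids it was at 820 CP20M with Ve, 781 with R4 and 3289 with R8 in M41, at 792, 1633 and 2639 in M40, and at 1258, 2673 and 2201 in M1. In tumoroids it was at 1024, 1868 and 1661 in F11, at 1420, 3301 and 2813 in M3, and at 1146, 2716 and 2507 in M14. With the exception of the M41 library with R4, which held 20 Nrp2 reads, each regorafenib library was above each of the 6 vehicle libraries. With both genotypes pooled the rise was 1.05 on the log2 scale (SE 0.22, 95% interval 0.58 to 1.52, limma adjusted p = 0.00285), higher in 6 of 6 lines when both doses are averaged. It was 1.09 (SE 0.31, adjusted p = 0.0290, limma) in colonoids. Without colonoid line M40 the colonoid value was 0.95 with a limma adjusted p of 0.188. In tumoroids it was 1.01 (SE 0.31) with a limma adjusted p of 0.0605, and 0.0352 with a term for the line, which made it a call. Leaving out tumoroid M3 or M14, whose values enter only the shared spread, also took the colonoid value past the threshold (limma adjusted p = 0.0523 and 0.0674).

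Nrp1, the co-receptor best known for VEGF-A, was not called. It ranged from 147 to 420 CP20M with Ve, from 40 to 492 with R4 and from 215 to 511 with R8, with overlap of all 3 groups. With both genotypes pooled the log2 difference was 0.47 (SE 0.35, 95% interval -0.28 to 1.22, limma adjusted p = 0.351). The lowest value was 1 read in the M41 library with R4. Without that library the difference was 0.70 (SE 0.21, limma adjusted p = 0.0157), a call, as it was in colonoids (0.91, SE 0.30, limma adjusted p = 0.0374) and with DESeq2 over both genotypes (0.66, SE 0.27, adjusted p = 0.0372). Whether Nrp1 was called thus depended on that library and on the tool.

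No ligand was called with regorafenib. In tumoroids Vegfa was at 2327 CP20M with Ve, 1378 with R4 and 1399 with R8 in F11, at 4565, 3520 and 2852 in M3, and at 2740, 2305 and 1818 in M14. All 3 tumoroid lines were lower with both doses, and the log2 difference was -0.56 (SE 0.28, adjusted p = 0.256, limma), or adjusted p = 0.0271 with a term for the line, short of the 1.5-fold limit in either fit. In colonoids it was at 2274, 2224 and 2208 in M41, at 1671, 2578 and 2569 in M40, and at 2150, 2092 and 2119 in M1. The colonoid difference was 0.18 (SE 0.28, limma adjusted p = 0.697), with only M40 higher. Vegfb was at 97 to 545 CP20M over the 24 organoid libraries. In colonoids it was at 140 to 202 with Ve, 98 to 198 with R4 and 257 to 545 with R8, so its R8 values lay above all others there, and R8 alone was not tested against Ve. With both doses averaged the colonoid difference was 0.44 (SE 0.35, limma adjusted p = 0.423). In tumoroids Vegfb was at 153 to 386 with Ve, 118 to 362 with R4 and 247 to 389 with R8, with overlap. Vegfc, too low for a test, was at 0 to 22 CP20M with Ve, 0 to 72 with R4 and 14 to 45 with R8. With a filter of 20 CP20M in 3 libraries its difference was 0.76 (SE 0.28, limma adjusted p = 0.0655).

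Leaving aside Flt4, which was tested because it was high with regorafenib, 1 of the other 4 genes tested, Nrp2, was called higher over both genotypes, as were 7.58% of all genes tested. In colonoids Nrp2 was again 1 of 4, against 5.41%. In tumoroids none of the 4 was called higher, against 4.11%, or 1 of 4 against 5.82% with a term for the line. All genes tested had a median of -0.10 on the log2 scale over both genotypes, so the increases of Flt4 and Nrp2 were slightly larger against it. For the direct test of a difference between genotypes in the response, 0 of 5 members were called, against 0.00883% of all genes, and 0 had an unadjusted p under 0.05. Vegfa had the largest such difference among the 5, at -0.74 (SE 0.39, 95% interval -1.58 to 0.09), with a limma adjusted p of 1.00. With a term for the line its unadjusted p was under 0.05 but its adjusted p was 0.600 in limma. edgeR and DESeq2 called none of the 5 either, and edgeR called 0 genes in all.

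Between 4 and 8 µM Flt4 was the only member called, and only in some fits. The log2 difference was 1.32 (SE 0.31, higher in 6 of 6 lines), with a limma adjusted p of 0.0694, and 0.0239 with a term for the line (SE 0.25). DESeq2 called it (1.35, SE 0.37, adjusted p = 0.0115), as did limma with a pseudocount of 100 (adjusted p = 0.0458). With no filter the limma adjusted p was 0.164, and the filter of the fits that called it kept Flt4 through 5 libraries with R8 and 1 with R4. None of the other 4 members was called, against 0.451% of all genes, or 1.78% with the line term. Vegfb was also higher with R8 in 6 of 6 lines, by 0.84 (SE 0.29), but with a limma adjusted p of 0.199. Without the shallow M41 library, where Flt4 with R4 rests on 2 reads, the Flt4 difference was 1.20 (limma adjusted p = 0.0616, no line term).

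**Figure D2:**
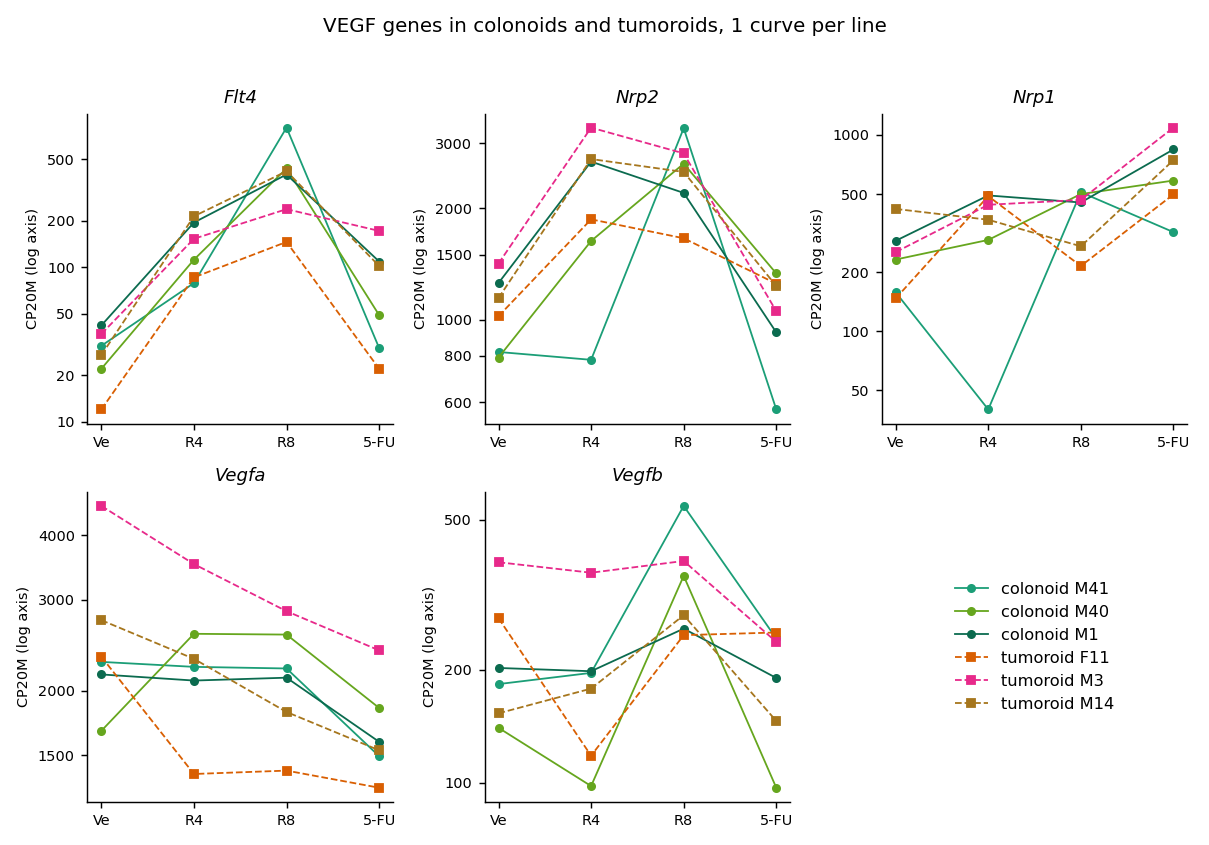
CP20M (log axis) of the 5 tested genes in each of the 6 organoid lines with vehicle (Ve), 4 µM (R4) and 8 µM regorafenib (R8) and 1 µM 5-FU; colonoids have solid and tumoroids dashed lines. Flt4 lies at 12 to 42 with Ve and 146 to 803 with R8, and the dips of M41 at R4 are the library of 512592 reads.

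5-FU, a cytotoxic drug that is not aimed at these receptors, was followed by higher Nrp1, a call only in some fits. Nrp1 was at 158 CP20M with Ve and 320 with 5-FU in M41, at 232 and 586 in M40, and at 289 and 844 in M1. In tumoroids it was at 147 and 498 in F11, at 253 and 1090 in M3, and at 420 and 744 in M14. It was higher with 5-FU in 6 of 6 lines, and the groups overlapped only through M41 with 5-FU and M14 with Ve. The log2 difference was 1.36 (SE 0.40, adjusted p = 0.0691, limma). It was a call once the line was a term (SE 0.31, adjusted p = 0.0144, limma), and without the shallow M41 library with R4 the adjusted p was 0.00565 in limma.

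With 5-FU, Flt4 was at 22 to 172 CP20M against 12 to 42 with Ve, or 0.88 on the log2 scale (SE 0.37, limma adjusted p = 0.236). DESeq2 on the recovered reads gave 1.49 (SE 0.47, adjusted p = 0.0211), a call. The difference between both drugs was not tested. Vegfa was at 1492, 1851 and 1591 CP20M with 5-FU in the colonoid lines M41, M40 and M1 and at 1296, 2394 and 1532 in the tumoroid lines F11, M3 and M14. It was lower than with Ve in 5 of 6 lines, and the log2 difference of -0.58 (SE 0.22, adjusted p = 0.179, limma) was just short of 1.5-fold. Nrp2 differed by -0.04 (SE 0.25, 95% interval -0.57 to 0.49), and Vegfb by -0.17 (SE 0.29, 95% interval -0.77 to 0.43). In all, 0 of 5 members were called with 5-FU, 3 of 5 having an unadjusted p under 0.05, against 2.35% of all 11562 genes tested in that fit. With a term for the line 1 of 5 was called, against 5.05%.

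Other genes of the pathway in the organoids were taken from lists of partners. The plexins, which signal for neuropilins, had 2 of 4 tested members called higher with regorafenib over both genotypes and none lower, against 7.58% of all genes called higher, with a median log2 fold change of 0.45 against -0.10 for all genes. Plxnd1 rose by 1.66 (SE 0.46, limma adjusted p = 0.0151) from means of 225 and 119 CP20M with Ve in colonoids and tumoroids, and Plxna1 rose by 0.69 (SE 0.15, limma adjusted p = 0.00354). Of 20 tested genes for signalling intermediates, 1 rose, Plcg1 by 1.13, which encodes the phospholipase that binds activated VEGF receptors, and none fell, a share of higher calls below the 7.58% over all genes, with a median of 0.02. Plcg1 was also the only gene of that list called with 5-FU, at 0.83, against 2.35% of all genes called in that fit.

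Of 9 tested hypoxia-inducible genes, a class to which Vegfa belongs, Car9, a carbonic anhydrase gene, alone was called, at -1.37, and the median was -0.21. Of all 11320 genes tested in that comparison, 977 were called lower and 858 higher. None of 3 tested class 3 semaphorins was called with regorafenib (median -0.20), although Sema3c was abundant at 8371 ± 1906 CP20M in colonoids with Ve (SD, n = 3). Sema3f, a ligand of Nrp2, was the 1 semaphorin of 3 called between genotypes, 2.98 higher in tumoroids in vehicle, against 1.39% of all genes. Among 4 tested genes for VEGF-C processing and the neuropilin adaptor none was called with regorafenib (median -0.02), with the protease gene Furin at 5909 and the adaptor gene Gipc1 at 3819 CP20M in colonoids with Ve. The remaining ligands Pgf and Vegfd and the angiopoietin and TIE genes did not reach the level for a test.

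In fibroblast cultures the receptors Kdr and Flt1 rose with 4 µM regorafenib in the fit with a term for the line, beside a large difference between lines. Kdr was at 72 CP20M with Ve and 183 with R4 in M3, at 1019 and 3866 in M3(2), at 168 and 999 in M1(2), and at 186 and 1014 in M11. Each line was higher with R4, by 1.14 to 2.44 on the log2 scale, while the groups overlapped because M3(2) with Ve exceeded 3 of the 4 R4 values. Without a term for the line the difference of 1.95 (SE 0.91) had a limma adjusted p of 0.362. With that term it was a call (SE 0.35, 95% interval 1.21 to 2.70, limma adjusted p = 0.000801). Without M3(2) the difference was 1.97. Kdr then passed the filter only through libraries with regorafenib, so a p from that fit is not support for its rise.

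Flt1 was at 51 and 156 CP20M with Ve and R4 in M3, at 610 and 1428 in M3(2), at 72 and 207 in M1(2), and at 149 and 429 in M11. The rise was of like size in the 4 lines, 1.20 to 1.41, and again smaller than the gap between M3(2) and the other lines. The log2 difference was 1.31 (SE 0.78, limma adjusted p = 0.503), and a call with the line term (SE 0.28, limma adjusted p = 0.00296). Flt4 was at 1028 and 776 in M3, at 3122 and 5806 in M3(2), at 1226 and 1776 in M1(2), and at 888 and 1541 in M11. It was thus lower in M3 and higher in 3 lines, and was not called in either fit (log2 difference 0.45, limma adjusted p = 0.813 and 0.159).

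With 10 µM, Kdr and Flt1 were above their 4 µM values in M3 and below them in M3(2) and M1(2). Kdr was at 256, 678 and 282 CP20M with R10 in M3, M3(2) and M1(2), and Flt1 at 182, 413 and 179 in the same lines. Both were above Ve in M3 and M1(2) and below it in M3(2), and neither was called against Ve. Without M3(2), the Flt1 difference with R10 was 1.27 (SE 0.26) in the fit with the line term. Flt1 then passed the filter only through libraries with R4, so a p from that fit is not support for its rise. Flt4 was at 548, 1175 and 575, below Ve in 3 of 3 lines. With a term for the line Flt4 fell by 1.11 on the log2 scale against Ve (SE 0.24, limma adjusted p = 0.00160) and by 1.56 against R4 (SE 0.24, limma adjusted p = 0.000851). Kdr fell by 1.42 against R4 in the same fit (SE 0.39, limma adjusted p = 0.0189), higher in M3 and lower in the other 2 lines with R10. Without M3(2) the Kdr difference between doses was -0.90 and not a call (limma adjusted p = 0.186).

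These receptors are markers of endothelial cells, and endothelial transcripts were therefore read in the same libraries. They moved with the receptors only in part. The 12 blood endothelial markers summed to 1878 CP20M with Ve, 2745 with R4 and 1868 with R10 in M3, and to 16098, 39354 and 8230 in M3(2). They summed to 3121, 10455 and 2264 in M1(2), and to 4245 with Ve and 11693 with R4 in M11. M3(2) was the highest line in each group, as for the 3 receptors. With R10 the sum was below Ve in M3 and M1(2), where Kdr and Flt1 were above Ve. With R4 the sum was higher in M3, where Flt4 was lower. With a term for the line 8 of 11 tested blood endothelial markers were called higher with R4, among them Pecam1 (1.36) and Cdh5 (1.14), and 10 of 11 lower with R10 than with R4. The shares over all genes in these fits, in either direction, were 7.22% and 6.02%. Without the line term 0 of 11 were called in either comparison. Prox1, a lymphatic regulator, was at 113 CP20M with Ve and 181 with R4 in M3, at 2899 and 9090 in M3(2), at 468 and 1963 in M1(2), and at 878 and 3123 in M11. The 5 lymphatic markers did not all follow it. Their sum was higher with R4 in M3(2), from 8508 to 13636 CP20M, and in M11, from 2562 to 4814, and lower in M3, from 4757 to 3375, and in M1(2), from 5902 to 5723. This list includes Pdpn, which fibroblasts also express. Lyve1, a receptor of lymphatic vessels, was lower with R4 in M3 (46 and 28 CP20M) and in M3(2) (233 and 107) and higher in M1(2) (84 and 96) and M11 (40 and 45), and Ccl21a was at 0 in all libraries. The mural and muscle list moved as well, from 3763 to 7643 with Ve to 9711 to 12814 with R4 and 9612 to 14046 with R10. Immune markers went the other way, from 1049 to 5555 with Ve to 630 to 1913 with R4 and 582 to 611 with R10, and of the 8 fibroblast markers Pdgfra was called lower with R4. The part of these cells in the receptor results was not tested.

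Ratios of each receptor to Cdh5 within a library were taken after the values had been seen and are given as a description with no test. Kdr relative to Cdh5 was higher with R4 than with Ve in 4 of 4 lines, by 1.48- to 2.30-fold, with R10 in 3 of 3 lines, by 1.08- to 3.25-fold, and with R4A1 in 4 of 4, by 1.21- to 1.92-fold. Flt4 relative to Cdh5 was lower with R4 in 4 of 4 lines, at 0.553 to 0.727 of its vehicle ratio, and with R10 in 3 of 3, at 0.487 to 0.612. With R4A1 it was at 0.486 to 0.929 in 4 of 4 lines, and with A1 alone at 0.947 to 1.05. Flt1 had no common direction with R4, with ratios of 0.915 to 2.24, and exceeded its vehicle ratio in 3 of 3 lines with R10, by a median of 3.08-fold. Kdr was thus higher relative to Cdh5, and Flt4 lower, in each line with R4. Relative to Pecam1, another endothelial junction gene, the directions with R4 were the same in 4 of 4 lines, at 1.33 to 1.86 for Kdr and 0.423 to 0.652 for Flt4. With R10, however, Kdr and Flt1 relative to Pecam1 were each higher in only 2 of 3 lines.

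**Figure D3:**
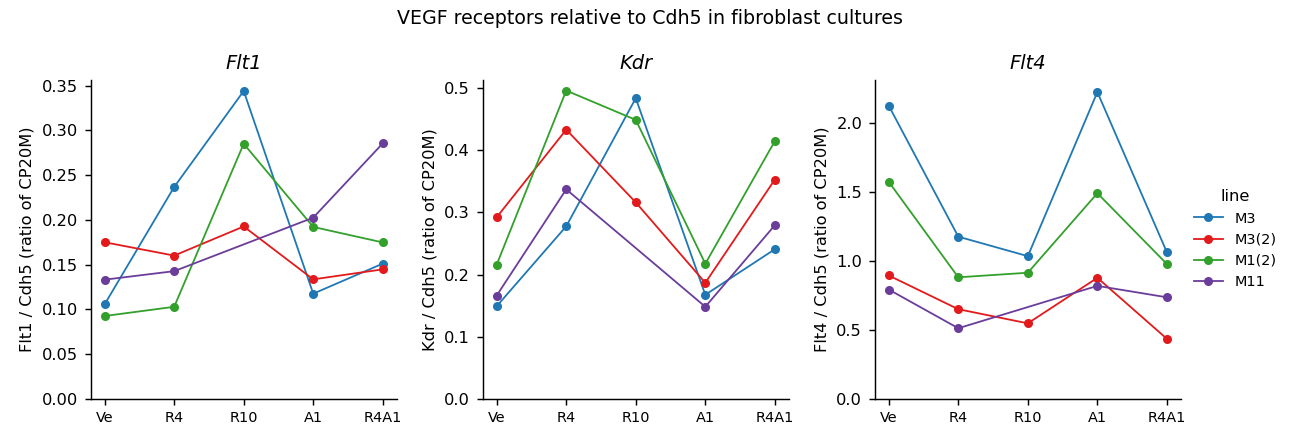
Ratio of Flt1, Kdr and Flt4 to Cdh5 (CP20M over CP20M, linear axis from 0) in each fibroblast line with vehicle (Ve), regorafenib at 4 µM (R4) and 10 µM (R10), 1 µM autogramin-2 (A1) and the combination (R4A1); M11 has no R10 library and its curve skips it. The Kdr curves are higher at R4 than at Ve in 4 of 4 lines and the Flt4 curves lower in 4 of 4.

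The ligand Vegfc fell in fibroblasts with each regorafenib treatment in the fit with a term for the line. It was at 531 CP20M with Ve, 301 with R4 and 206 with R10 in M3, at 648, 319 and 238 in M3(2), at 612, 405 and 215 in M1(2), and at 247 with Ve and 164 with R4 in M11. All 4 lines were lower with R4 and the 3 lines with R10 lower still, and M11 was below the other lines in both its groups. Without a term for the line the log2 differences were -0.72 with R4 (SE 0.33, limma adjusted p = 0.343) and -1.06 with R10 (SE 0.35, limma adjusted p = 0.0534). With that term Vegfc fell by 0.72 with R4 (SE 0.13, limma adjusted p = 0.000859) and by 1.30 with R10 (SE 0.14, limma adjusted p = 2.61e-06). It also fell by 0.59 from R4 to R10 (SE 0.14, limma adjusted p = 0.0109), a call that was lost without M3(2) (-0.66, limma adjusted p = 0.0540). Without M11, Vegfc was called in the fit with no line term too, at -0.78 with R4 (limma adjusted p = 0.0134) and -1.36 with R10 (limma adjusted p = 8.93e-05).

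Vegfa and Vegfb varied little in fibroblasts. Vegfa lay between 1093 and 1973 CP20M in all 19 libraries, with a log2 difference of -0.16 with R4 (SE 0.19, 95% interval -0.56 to 0.24) and 0.02 with R10 (SE 0.20, 95% interval -0.41 to 0.45). M3 was the highest line in all 5 groups. Vegfb was at 656, 726 and 673 CP20M with Ve and at 831, 863 and 887 with R10 in M3, M3(2) and M1(2). These 3 values with R10 lay above the 4 with Ve, a difference of 0.35 with a term for the line (SE 0.09, limma adjusted p = 0.00595) that is below the 1.5-fold limit.

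Of the neuropilins, Nrp1 had lower values with regorafenib short of the 1.5-fold limit, and Nrp2 was not called. Nrp1 was at 4760 CP20M with Ve, 3504 with R4 and 2676 with R10 in M3, at 3221, 2516 and 2437 in M3(2), at 2537, 2518 and 2125 in M1(2), and at 3516 with Ve and 2468 with R4 in M11. It was lower in 4 of 4 lines with R4 and 3 of 3 with R10, with overlap between the groups. The differences of -0.33 with R4 (SE 0.09, limma adjusted p = 0.0187) and -0.54 with R10 (SE 0.10, limma adjusted p = 0.000504), both with a term for the line, were below the 1.5-fold limit. Without M3(2) the difference with R10 was -0.61 and a call (SE 0.12, limma adjusted p = 0.00226). Nrp2 was at 6835, 7939, 7226 and 3709 CP20M with Ve and at 8295, 7871, 6518 and 3608 with R4 in M3, M3(2), M1(2) and M11. Its log2 difference with R4 was 0.02 (SE 0.32 without and 0.08 with a term for the line); the difference from organoids was not tested. M11 was the lowest line for Nrp2 in each of its groups.

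Counts of calls followed the fit. With R4, 0 of 8 members were called, against 1.02% of the 11032 genes tested, and 2 of 8 had an unadjusted p under 0.05. With a term for the line 3 of 8 were called (Kdr and Flt1 higher, Vegfc lower), against 7.22%. With R10 the counts were 0 of 8 against 7.33%, 3 having an unadjusted p under 0.05, and 2 of 8 (Flt4 and Vegfc, both lower) against 13.8% with the line term. Between R10 and R4 they were 0 of 8 against 0.145%, 2 having an unadjusted p under 0.05, and 3 of 8 (Flt4, Kdr and Vegfc, all lower) against 6.02%. edgeR called none of the 8 with R4 or between doses and 1 with R10, Vegfc, and DESeq2 gave the same counts.

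**Figure D4:**
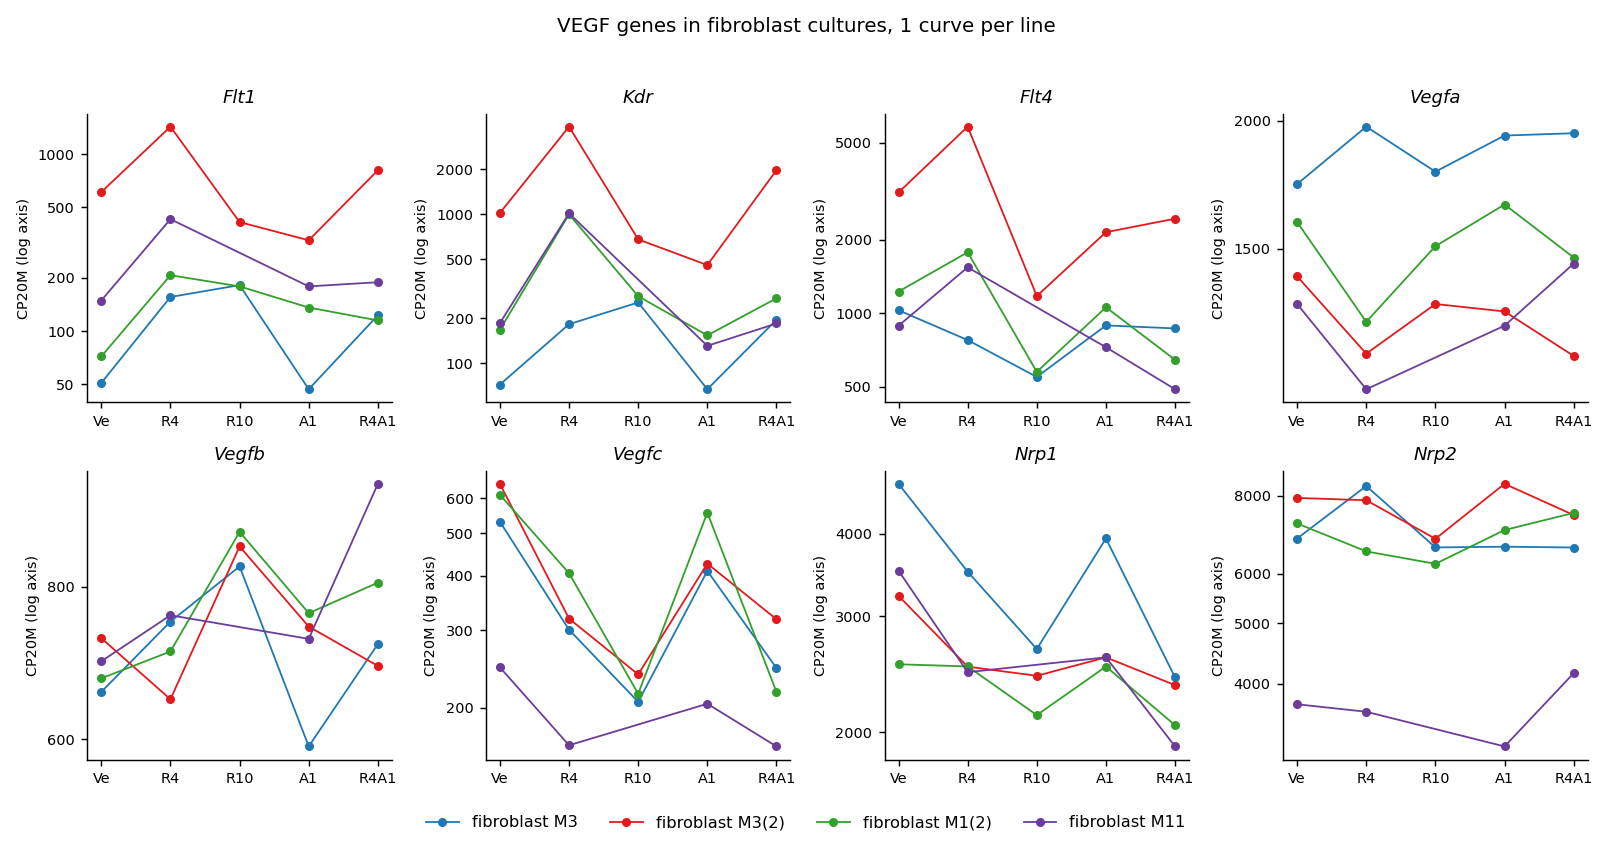
CP20M (log axis) of the 8 genes in each fibroblast line with vehicle (Ve), regorafenib at 4 µM (R4) and 10 µM (R10), 1 µM autogramin-2 (A1) and the combination (R4A1); points of 1 line are joined and M11 has no R10 library. M3(2) is the highest line for Flt1, Kdr and Flt4 in every group, and Vegfc is below vehicle in each line with R4, R10 and R4A1.

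With autogramin-2 alone, an inhibitor of the start of autophagy, none of the 8 genes was called, against 0% of all genes, with 0 of 8 at an unadjusted p under 0.05. The line term left the count at 0, with 2 of 8 (Nrp1 and Vegfc) at an unadjusted p under 0.05, and edgeR and DESeq2 called none. Kdr was at 67 to 456 CP20M, highest in M3(2) and below Ve in 4 of 4 lines, a difference of -0.44 (SE 0.91, 95% interval -2.38 to 1.49). Vegfc was at 410, 426, 557 and 204 in M3, M3(2), M1(2) and M11, also below Ve in 4 of 4 lines, at -0.33 (SE 0.33, 95% interval -1.02 to 0.36).

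With the combination, Vegfc and Nrp1 fell in the fit with a term for the line, and no receptor was called against Ve. Vegfc was at 246 CP20M in M3, 318 in M3(2), 217 in M1(2) and 163 in M11, below Ve in 4 of 4 lines. Nrp1 was at 2423, 2359, 2051 and 1905 in the same lines, below every vehicle value. Against Ve the log2 differences were -0.998 for Vegfc (SE 0.33, limma adjusted p = 0.114) and -0.65 for Nrp1 (SE 0.18, limma adjusted p = 0.0630). Both were called with the line term (limma adjusted p = 4.03e-05 and 0.000102). That made 2 of 8 members called against 6.99% of all genes, and 0 of 8 against 1.66% without the term, where 2 had an unadjusted p under 0.05. edgeR called 0 of 8 and DESeq2 called both.

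Kdr with R4A1 was at 196 CP20M in M3, 1976 in M3(2), 273 in M1(2) and 185 in M11, and was not called against Ve (0.70, SE 0.35 with a term for the line, limma adjusted p = 0.152). Its values were below those with R4 alone in M3(2), M1(2) and M11 and above in M3, a difference of -1.25 (SE 0.35 with the line term, limma adjusted p = 0.0565). Flt4 was at 866, 2438, 644 and 488, and against R4 alone it fell by 1.04 with the line term (SE 0.22, limma adjusted p = 0.0226), lower in 3 of 4 lines, but not without M3(2) (-0.97, limma adjusted p = 0.0511). The blood endothelial sum was 3181 CP20M in M3, 23487 in M3(2), 2683 in M1(2) and 2631 in M11, below R4 alone in the same 3 lines and above it in M3. With the line term 1 of 8 members was called between R4A1 and R4, against 1.43% of all genes. Without it 0 of 8 were called, against 0.00906%, and 0 of 8 had an unadjusted p under 0.05, and edgeR and DESeq2 called none.

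**Figure D5:**
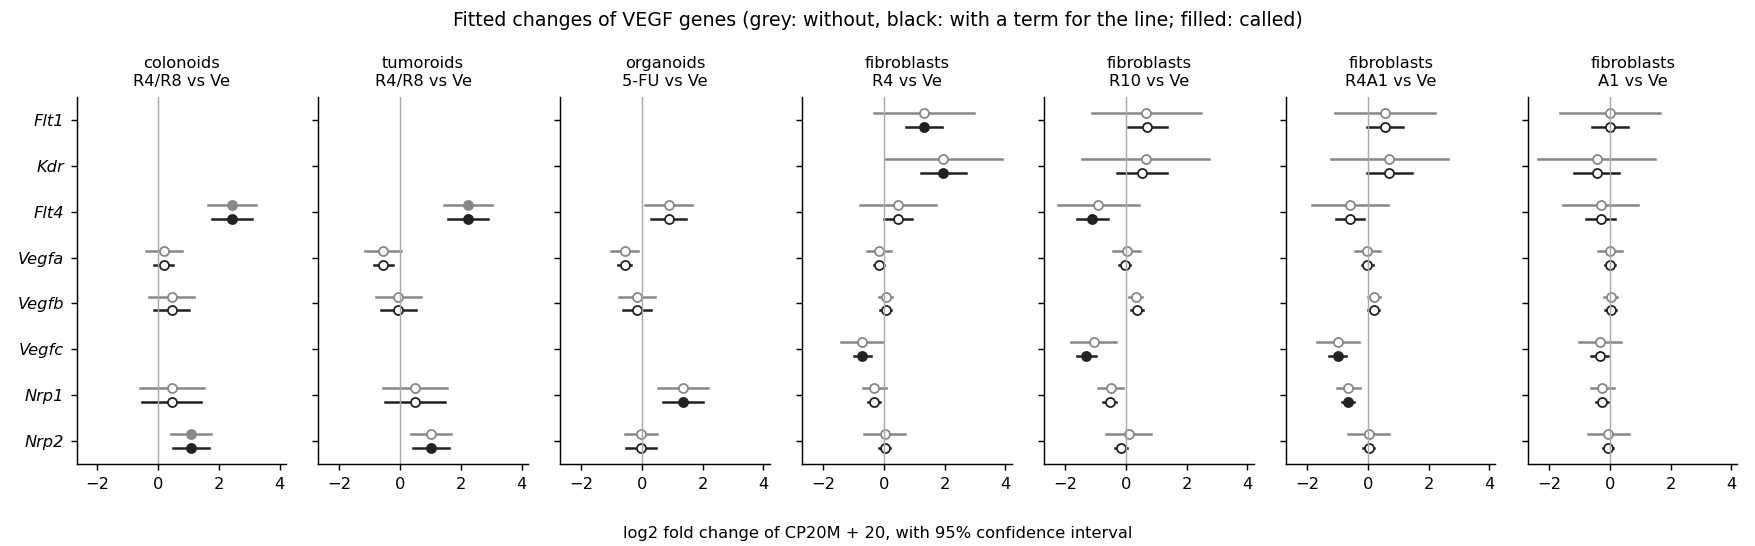
Log2 fold changes of CP20M + 20 with 95% confidence intervals for each tested gene in 7 comparisons, from limma without (grey) and with (black) a term for the line; filled points were called. Flt4 at 2.44 and 2.24 in colonoids and tumoroids stands apart from the other organoid values, and the fibroblast intervals of Flt1 and Kdr narrow from SE 0.78 and 0.91 to 0.28 and 0.35 with the line term at R4. The filled Flt4 points in organoids are from filtered fits, which are not support for its rise.

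Partners of the family in fibroblasts were read from the same lists. Over all genes tested, the shares called in either direction were 7.33% with R10 without the line term and, with it, 7.22% with R4 and 6.99% with R4A1. Of 6 tested semaphorins, which bind neuropilins, Sema3a and Sema3e were called lower with R10 without a line term, at -1.68 and -1.63 on the log2 scale, and none was called higher. Sema3a was at 7187 ± 2396 CP20M with Ve (SD, n = 4) and 2120 ± 361 with R10 (SD, n = 3). Under the line term both were also called lower with R4, at -1.10 and -1.02, and with R4A1, at -1.16 and -1.07, while Sema3b was called higher, at 0.81 and 0.93. The median over the 6 was 0.04 with R4 and -0.14 with R10. Of 5 tested plexins, Plxna1 was called higher with R10 (0.95) and with R4A1 (0.63), and none lower, and the line term added Plxna4 with R4, at 1.43. Of 5 tested genes for VEGF-C processing and the adaptor, Ccbe1 was called lower with R10, at -2.06, and the line term added a call with R4, at -1.76, together with Pcsk5, a protease gene, higher at 1.48. Ccbe1 encodes a secreted protein required for the cleavage of VEGF-C, and was at 749 ± 401 CP20M with Ve, 209 ± 103 with R4 (SD, n = 4) and 162 ± 95.3 with R10 (SD, n = 3).

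The angiopoietin and TIE genes, a second system of vessel signalling, had 0 of 4 called with R4 without the line term, against 1.02% of all genes, and 3 of 4 with it, against 7.22%. Tie1 (1.46), Angpt2 (1.23) and Tek (1.07), all of which endothelial cells express, were higher with R4. They fell from R4 to R10, at -1.75, -2.45 and -1.10. The median of the 4 was 1.15 with R4. Of 20 tested signalling intermediates none was called without the line term, and Nos3, the endothelial nitric oxide synthase, was higher with R4 (1.20) with it. None of 9 tested hypoxia-inducible genes was called with R4 in either fit or with R10 without the line term, and Egln3 and Ndrg1 were lower with R10 with it, at -1.03 and -0.91. Epas1, a hypoxia factor that endothelial cells use, was called higher with the line term, at 1.11 with R4, 0.70 with R10 and 0.86 with R4A1. The remaining ligands Pgf and Vegfd, at 127 ± 54.5 and 482 ± 217 CP20M with Ve (SD, n = 4), were not called in any fibroblast comparison.

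The genes with the most similar profiles were named by the root mean square difference between centred log2 values. Over the 24 organoid libraries the 3 nearest to Flt4 were Itga5, Bmp1 and Cald1, at 0.530 to 0.545 against 1.26 for the spread of Flt4 itself. The nearest to Nrp2 were Pld3, Tpp1 and Lamc1, at 0.306 to 0.321 against 0.707, and those nearest to Nrp1 were Arhgef3, Slc43a2 and Fbxo36. Vegfa was closest to Gtpbp2, Slc3a2 and Tapbpl, and Vegfb to Sema3b, Mettl22 and Miga1. Over the 19 fibroblast libraries Kdr was closest to Gpm6a, Adgrf5 and Icam2 (0.313 to 0.363 against 1.46), and Flt1 to Mmrn2, Tspan18 and Shank3 (0.334 to 0.355 against 1.13). Flt4 was closest there to Foxq1, Pear1 and Pde4b (0.283 to 0.310 against 0.896), none of which was among its nearest in organoids. Vegfc was closest to Ifi47, Rasa1 and Junb (0.190 to 0.213 against 0.581). Nrp1 was closest to Bicc1, Ldah and Ehd2, Nrp2 to Galnt18, Rbpms and Pvr, Vegfa to Gm26762, Gpi1 and Pgm2, and Vegfb to AI464131, Sil1 and Smpd1. Libraries of 1 line and of 1 treatment are shared by all these profiles, and the distances carry no test.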

How the data were processed

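The authors trimmed paired reads with Trimmomatic 0.36, aligned them to GRCm38 with STAR 2.5.3a and counted genes with HTSeq 0.9.1, per the submitters' processing notes, and the annotation was Ensembl release 90. The strand setting of the count step was not given in the sources used here. The deposited signal is CP20M: the authors scaled the counts of each library to a total of 20000000 and rounded up, without dividing by length. Dividing by the value of 1 read gave whole reads for 97.8 to 100% of organoid and 99.5 to 99.9% of fibroblast values, and these were used for edgeR 4.0.16 and DESeq2 1.42.0. Precision at low values is that of counting, since 1 read was worth up to 39.0 CP20M.

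The 8 genes and all gene lists were chosen with earlier results of these data known. Values were fitted on log2(CP20M + 20) with limma 3.58.1 (trend) in R 4.3.3, 1 coefficient per group, over genes with at least 200 CP20M (10 CPM) in 2 libraries. The genotype and regorafenib comparisons used the 18 libraries without 5-FU, the 5-FU comparison all 24, and the fibroblast comparisons all 19, in 13 comparisons. Regorafenib in organoids is the mean of both doses. The named genes were the 8 members, the called genes of the lists, and for each member the 3 nearest profiles.

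Treatments of 1 line share an animal, so the line numbers pair the samples. Median correlations of deviations from group means within a line ran from 0.242 to 0.884, and for colonoid lines the lowest pair reached 0.0121. The study's text does not state a line term, so the fit without it is the reported one. Other alternatives were scaling, pseudocount, filter, tool, the study's thresholds and each line left out. The fit with the line term but without line M3(2) was chosen after seeing the data. No 2 libraries of a group agreed within counting error. The script was tested on simulated counts with 200 changed genes.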

Additional observations from a re-analysis of the deposited data

Results flagged for a closer look

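Of 32 fibroblast groups of 4 libraries tested for a library far from the others by Dixon's ratio, 3 were marked, and chance marks about 1 group in 20. Kdr with R4A1 in line M3(2), at 1976 CP20M, lay far above the other 3 lines, which were at 185 to 273. That line also had the highest blood endothelial marker sum with R4A1, at 23487 CP20M against 2631 to 3181. Nrp1 was marked in line M3 with R4, at 3504 CP20M against 2468 to 2518, and with A1, at 3934 against 2517 to 2599. M3 was likewise the highest Nrp1 line with Ve and R4A1, at 4760 and 2423 CP20M.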

How the results depend on the processing

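None of the fold changes followed through the alternatives, those of members called with or without the line term, reversed. The others were not followed, and Nrp2 with R10 in fibroblasts went from 0.08 to -0.17 with the line term. Over both genotypes Flt4 remained called with regorafenib in all 16 alternatives (log2 fold change 1.37 to 3.12) and Nrp2 in those other than the study's thresholds. Flt4 passed the main filter only through regorafenib libraries, so its calls in alternatives that kept that filter are not support for its rise. The fit with no filter, in which every gene was tested, also called Flt4. Between genotypes, for the difference in response, and with autogramin-2, 0 members were called under every alternative.

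With the replicate block, the term for the line, members called rose from 1 to 2 in tumoroids, from 0 to 1 between 8 and 4 µM, from 0 to 1 with 5-FU, from 0 to 3 with R4, from 0 to 2 with R10, from 0 to 3 between R10 and R4, from 0 to 2 with R4A1 and from 0 to 1 between R4A1 and R4. It changed no other count of members. No paired analysis was possible between genotypes because each genotype has its own lines. With the block but without M3(2) the counts were 3 with R4, 4 with R10, 1 between R10 and R4, 2 with R4A1 and 0 between R4A1 and R4. The count with R4 includes Flt1 and Kdr, and that with R10 includes Flt1. Without M3(2) both genes passed the filter only through libraries with regorafenib, so these calls are not support for their rises. With edgeR the counts were 2 in tumoroids, 1 with 5-FU and 1 with R10. With DESeq2 they were 3 over both genotypes (Flt4, Nrp1 and Nrp2), 2 in tumoroids, 1 between organoid doses, 2 with 5-FU (Flt4 and Nrp1), 1 with R10 and 2 with R4A1. Without the shallow M41 library they were 3 over both genotypes and 3 in colonoids, each with Nrp1 added, 2 in tumoroids and 1 with 5-FU, and with median-of-ratios scaling also 2 and 1. All 24 organoid libraries in 1 fit gave 2 in tumoroids. A pseudocount of 100 gave 1 between organoid doses (Flt4), 1 with 5-FU and 1 with R10. With no filter the count in colonoids was 1. At the study's thresholds it was 1 over both genotypes, 1 in colonoids and 0 in tumoroids. Leaving out 1 line at a time gave 1 to 2 in colonoids, 0 to 2 in tumoroids, and 0 to 1 with 5-FU, R4, R10 and R4A1. The causes were not tested.

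Counts over all genes moved more. The line term took them from 51 to 201 between organoid doses, 272 to 584 with 5-FU, 113 to 796 with R4, 809 to 1519 with R10, 16 to 664 between R10 and R4, 183 to 771 with R4A1 and 1 to 158 between R4A1 and R4. Without M3(2) these last 5 were 663, 1383, 239, 766 and 121. DESeq2 gave 730 against 157 between genotypes, 1459 against 768 in tumoroids, 318 between doses, 4 against 1 for the difference in response, 590 with 5-FU, 231 with R4, 201 between R10 and R4, 332 with R4A1 and 6 between R4A1 and R4. edgeR gave 310, 1158, 96, 0 and 427 for the first 5 of these and 0 for the last, and without the M41 library they were 727, 1439, 130, 0 and 493. No filter gave 93, 456, 5, 0 and 139. The filter of 20 CP20M gave 2 for the difference in response and 276 with R4A1. All 24 libraries gave 238 between genotypes, 98 between doses and 0 for the difference in response, median-of-ratios scaling gave 93 and 0 for the latter 2 and 0 between R4A1 and R4, and a pseudocount of 2 gave 0 for the difference in response. Leaving out 1 line gave 7 to 244 between genotypes, 731 to 1331 in colonoids (1500), 157 to 1394 in tumoroids, 0 to 35 between doses, 26 to 254 with 5-FU, 28 to 317 with R4, 358 to 1118 with R10, 0 to 45 between R10 and R4, 32 to 359 with R4A1 and 0 between R4A1 and R4. The share of calls that were higher moved with the tool or scaling, which change together in edgeR and DESeq2: 40.8% in colonoids against 53.1% (edgeR), 54.6% (DESeq2) and 54.3% (median of ratios), 41.2% between doses against 28.1% (edgeR) and 28.0% (median of ratios), and 62.5% between R10 and R4 against 26.4% (DESeq2). Flt1, Kdr and Vegfc rest on few reads in organoids, at 0 to 59 per library.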
